A study of Mus musculus with 6 samples.

Results

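The cell cycle genes described here are 36 genes taken by their symbols from the 31253 genes of the deposited matrices. They comprise 14 genes of DNA synthesis (S phase), 21 genes of the G2 phase and of mitosis (G2/M), and Stmn1, a microtubule-destabilising protein of dividing cells that was placed in neither set. The data are 10x Genomics 3′ single-cell RNA libraries of dissociated liver, with 1 library from each of 6 mice. All 6 mice carried floxed Sting alleles (Stingfl/fl), ate chow until 8 weeks of age and then received western diet with carbon tetrachloride (WD-CCl4) over 12 weeks as a model of metabolic dysfunction-associated steatohepatitis, MASH. The 3 knockout mice were Stingfl/fl Cdh5-Cre+, in which a Cre recombinase under the endothelial Cdh5 promoter targets the floxed alleles. The 3 control mice were their Stingfl/fl Cdh5-Cre- littermates, so no mouse on plain chow and no mouse with unfloxed Sting enters any comparison. The cell type in the labels is the liver sinusoidal endothelial cell, but only 2639 of 41744 kept cells (6.322%) fell into clusters that carried endothelial markers. The members were therefore followed across all cell classes found.

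Dividing cells switch on these genes in waves. E2F factors turn on the S-phase members, which encode the sliding clamp of the replication fork (Pcna), the MCM helicase that opens the DNA (Mcm2 to Mcm7), the enzymes that make deoxynucleotides (Rrm1, Rrm2, Tyms, Tk1), the E-type cyclins of S-phase entry (Ccne1, Ccne2) and Uhrf1, which guides DNA methylation onto the new strand. The G2/M members follow: the mitotic kinase Cdk1 and its cyclins, the kinases Plk1, Aurka and Aurkb, the checkpoint and kinetochore proteins Bub1, Bub1b, Cenpe and Cenpf, spindle motors and binding proteins, and Ube2c and Cdc20, which act with the anaphase-promoting complex. In the adult liver most hepatocytes are quiescent, while activated lymphocytes and immature myeloid cells can divide.

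The 6 libraries held 55017937 to 73867890 UMIs (unique molecular identifiers, each counting 1 captured transcript), and their kept cells had median depths of 4744 to 7578 UMIs. Sting1, the targeted gene, reached 27.3, 26.2 and 27.1 CPM (a gene's UMIs per 1000000 UMIs of the summed cells) in the summed endothelial-like cells of controls 1 to 3. In those of knockouts 1 to 3 it reached 22, 15 and 21.9 CPM, lower without overlap (4.3% of genes were). The percent of these cells with a Sting1 UMI did overlap. It was 24.6%, 16% and 22.6% in the controls and 17.9%, 15.2% and 21.4% in the knockouts. The deleted segment is not given in the sources used here, and 3′ tags may lie outside it, so this is an incomplete check of the labels. Over all kept cells Sting1 reached 11.7, 14.8 and 15.2 CPM in the controls and 12.5, 13.3 and 14.2 CPM in the knockouts, which overlap. Sting1 was not compared within the other classes, so its loss there was not checked. Any 2 libraries shared at most 0.328% of the barcodes of the smaller one.

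The promoters of the most abundant members come first, because the G2/M members are detected together in the same cells below and share promoter letters that the choice of genes did not use. RefSeq promoter windows (GRCm38.p6, 250 bases before to 50 bases after the annotated start) were found for 29 of the 36 members, 12 of the S-phase and 17 of the G2/M set. Capitals mark 3 motifs, each searched on both strands. The first is TTTGAA, the letters of the cell cycle homology region (CHR). The second is CCAAT, the CCAAT box. The third is E2F letters, taken as GCGGGAA and also as GCGCCAA and as GCGCGAA. An E2F match can overlap a CCAAT match, and overlapping matches then form a single run of capitals. The first set is from the S-phase members, at chr2:132253131-132253430 on the minus strand (Pcna), chr1:128359656-128359955 on the minus strand (Mcm6) and chr7:102441445-102441744 on the plus strand (Rrm1).
Pcna: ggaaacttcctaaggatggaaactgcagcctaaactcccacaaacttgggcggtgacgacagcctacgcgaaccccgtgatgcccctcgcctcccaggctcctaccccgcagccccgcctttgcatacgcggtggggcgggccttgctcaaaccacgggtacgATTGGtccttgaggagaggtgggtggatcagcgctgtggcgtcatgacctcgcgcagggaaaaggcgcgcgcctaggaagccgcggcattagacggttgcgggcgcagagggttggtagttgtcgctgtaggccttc
Mcm6: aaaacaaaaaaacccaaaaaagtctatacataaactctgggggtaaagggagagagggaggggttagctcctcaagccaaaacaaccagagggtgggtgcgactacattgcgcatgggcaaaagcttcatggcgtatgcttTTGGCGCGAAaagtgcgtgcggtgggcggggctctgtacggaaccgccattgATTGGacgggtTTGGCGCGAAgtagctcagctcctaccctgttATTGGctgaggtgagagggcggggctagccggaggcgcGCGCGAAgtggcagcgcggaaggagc
Rrm1: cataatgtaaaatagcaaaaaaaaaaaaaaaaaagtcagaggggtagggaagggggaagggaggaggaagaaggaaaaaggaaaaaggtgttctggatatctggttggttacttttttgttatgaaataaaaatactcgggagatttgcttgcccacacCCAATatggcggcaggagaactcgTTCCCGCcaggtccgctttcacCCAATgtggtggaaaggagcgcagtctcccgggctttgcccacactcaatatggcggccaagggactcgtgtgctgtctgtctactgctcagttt
The second set is from the G2/M members, at chr7:135716330-135716629 on the minus strand (Mki67), chr11:99024140-99024439 on the minus strand (Top2a), chr2:164769679-164769978 on the plus strand (Ube2c) and chr11:117848987-117849286 on the plus strand (Birc5).
Mki67: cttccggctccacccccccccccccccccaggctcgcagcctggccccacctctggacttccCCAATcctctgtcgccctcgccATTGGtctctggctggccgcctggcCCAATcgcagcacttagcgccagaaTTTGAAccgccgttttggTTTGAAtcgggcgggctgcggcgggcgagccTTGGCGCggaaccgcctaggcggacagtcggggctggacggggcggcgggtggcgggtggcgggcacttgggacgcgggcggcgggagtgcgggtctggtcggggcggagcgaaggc
Top2a: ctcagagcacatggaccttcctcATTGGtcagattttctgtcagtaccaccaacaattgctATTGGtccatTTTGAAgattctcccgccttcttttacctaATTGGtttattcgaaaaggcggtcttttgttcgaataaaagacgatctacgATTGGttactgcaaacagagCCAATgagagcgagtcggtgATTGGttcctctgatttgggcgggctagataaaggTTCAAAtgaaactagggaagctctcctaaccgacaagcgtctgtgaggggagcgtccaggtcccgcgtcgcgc
Ube2c: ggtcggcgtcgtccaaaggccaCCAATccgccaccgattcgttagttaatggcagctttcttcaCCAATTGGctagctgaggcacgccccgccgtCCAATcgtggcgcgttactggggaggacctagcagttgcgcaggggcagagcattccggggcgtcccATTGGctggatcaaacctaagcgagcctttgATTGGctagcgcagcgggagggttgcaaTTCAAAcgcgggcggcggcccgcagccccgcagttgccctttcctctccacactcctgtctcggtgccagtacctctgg
Birc5: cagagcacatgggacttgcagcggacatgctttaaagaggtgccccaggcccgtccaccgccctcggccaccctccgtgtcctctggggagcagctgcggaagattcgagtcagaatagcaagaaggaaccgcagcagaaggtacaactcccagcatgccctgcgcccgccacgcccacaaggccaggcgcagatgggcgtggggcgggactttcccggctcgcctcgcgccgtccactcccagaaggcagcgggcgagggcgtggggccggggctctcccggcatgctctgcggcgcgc
A member was counted where any of its windows held the letters, and Mcm7 and Uhrf1 have more than 1 window, whereas the background counts single windows. The CHR letters were in 12 of 17 G2/M members and in 1 of 12 S-phase members (Mcm2), against 17.9% of 32851 RefSeq promoter windows of the same length. The CCAAT letters were in 15 of 17 and 9 of 12, against 37.4% of all windows. The E2F letters were in 4 of 17 and 6 of 12, against 8.07%. Of the windows printed above, that of Birc5 holds none of the motifs and that of Mki67 holds all of them. A match describes the letters in the window, and no factor binding was measured here.

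Transcripts of the G2/M members were concentrated in a small number of cells, most of them of immune classes. A cell was called G2/M-positive or S-phase-positive when it held UMIs of at least 3 members of that set. Of 41744 kept cells, 2266 (5.428%) were G2/M-positive and 9552 (22.88%) were S-phase-positive, and 1777 were both. The limit of 3 members is a range and not a cell type: 2028 cells held exactly 2 G2/M members and 529 held exactly 3. Since deeper cells show more members, every cell with 2000 or more UMIs was also thinned to 2000 UMIs, which left out 2179 control and 888 knockout cells. At that equal depth 3.1% of 38677 cells were G2/M-positive (95% exact binomial interval 2.93% to 3.28%) and 3.428% were S-phase-positive. Intervals and limits of this kind cover counting error only.

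The thinned G2/M-positive share was 18.44% in plasma-like cells, 12.76% in neutrophil-like cells, 11.72% in cDC1-like cells (the cross-presenting dendritic cell type), 3.899% in T-like cells, 3.804% in plasmacytoid dendritic-like cells and 2.12% in NK/ILC1-like cells. In the other named classes it was below 1%: 0.752% in mature dendritic-like, 0.695% in endothelial-like, 0.4% in B-like, 0.35% in stellate/fibroblast-like, 0.299% in cholangiocyte-like, 0.158% in mesothelial-like and 0% in hepatocyte-like cells. None of 247 thinned hepatocyte-like cells was positive for either set, which allows a share of up to 1.21%. The shares of these other classes lie below that limit. Free RNA was not measured, and its part in these shares was not tested. Hepatocyte-like cells nevertheless held some members after thinning, with a UMI of Stmn1 in 20.2%, Pcna in 10.7% and Mcm6 in 9.79% of cells (mean of 6 mice). The T-like class was the largest, with 15768 cells, and contained 39.32% of all G2/M-positive cells before thinning.

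**Figure D1:**
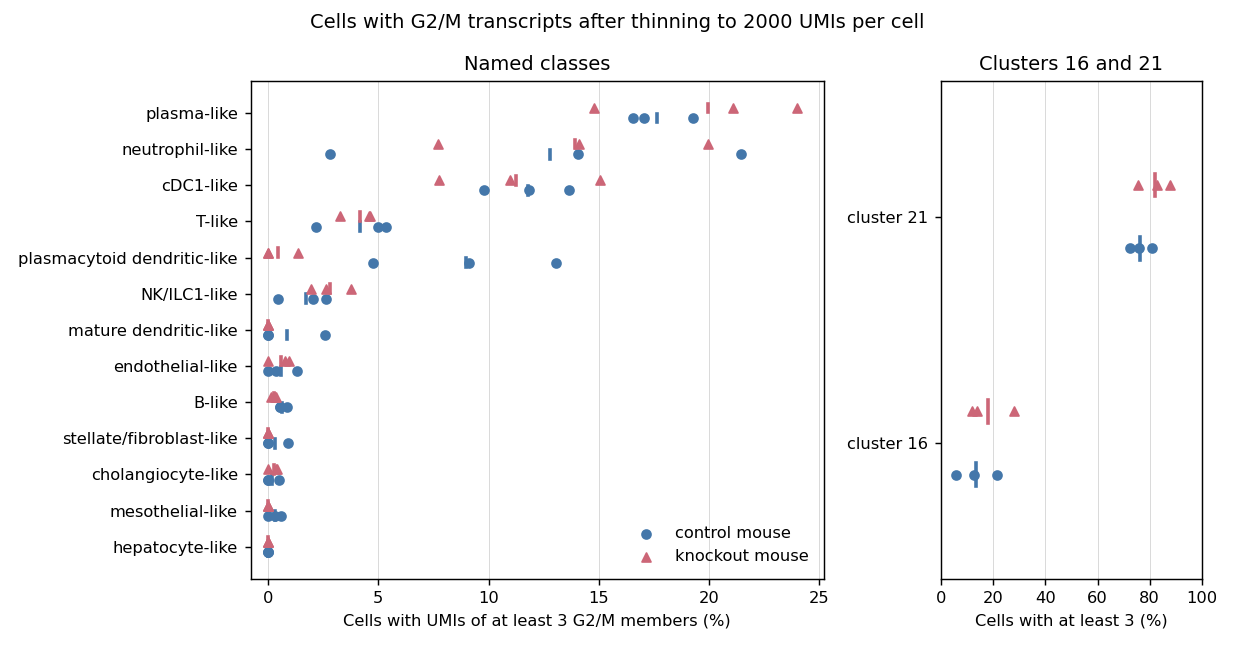
Percent of cells with UMIs of at least 3 G2/M members after thinning to 2000 UMIs per cell (horizontal axis), for the named classes at left and clusters 16 and 21 at right. Each point is 1 mouse (blue circles control, red triangles knockout) and the short vertical lines are the means of 3 mice; plasma-like cells lie between 14.8% and 24% and cluster 21 between 72.6% and 87.7%.

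Depth moved with the unthinned S-phase share. Mesothelial-like cells, with a median of 19280 UMIs, were S-phase-positive in 47.61% of cells, hepatocyte-like cells (16880 UMIs) in 45.31% and cholangiocyte-like cells (14830 UMIs) in 40.23%, whereas B-like cells (4787 UMIs) were so in 9.701%. After thinning these shares were 0.237%, 0%, 0.554% and 1.32%, so B-like cells went from the lowest to the highest of these classes. The thinned S-phase share was highest among named classes in plasma-like cells (8.511%) and neutrophil-like cells (8.07%), followed by cDC1-like (6.331%), T-like (4.711%) and NK/ILC1-like cells (3.455%). The G2/M share of plasma-like cells changed less, from 30.67% to 18.44%.

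**Figure D2:**
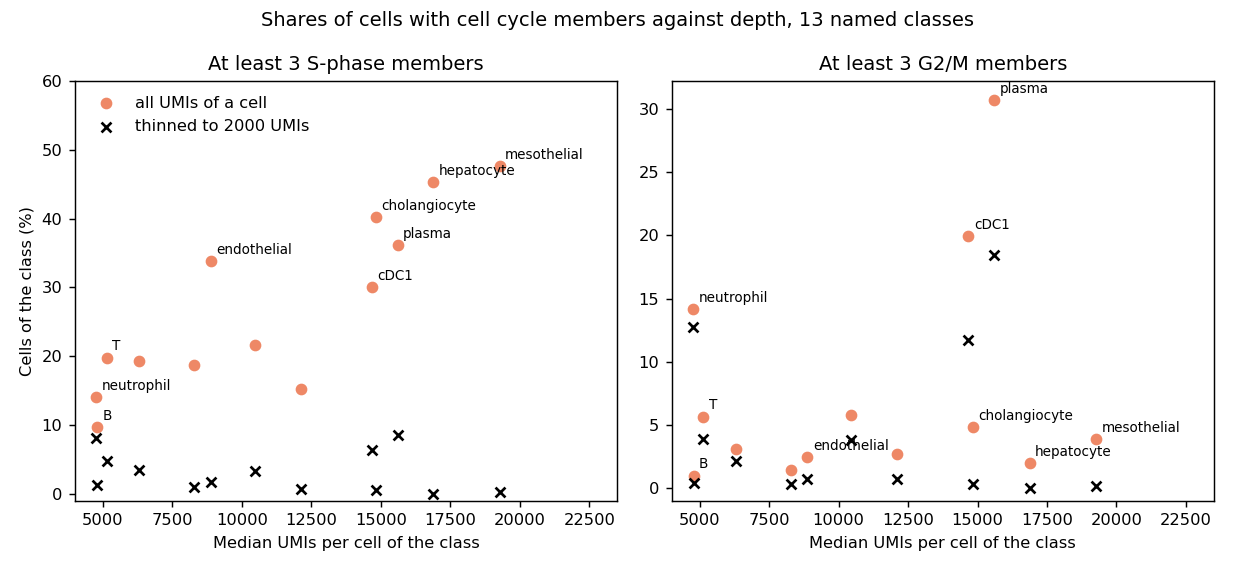
Percent of cells with at least 3 S-phase members (left) or at least 3 G2/M members (right) against the median UMIs per cell of each of 13 named classes. Filled circles use all UMIs of a cell and crosses use 2000 UMIs per cell; the S-phase share of mesothelial-like cells goes from 47.61% to 0.237%, and the G2/M share of plasma-like cells stays above 18%.

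A single T-like cluster held more of the G2/M transcripts than any other cluster. Cluster 21 had 581 cells (1.392% of kept cells) but 28.92% of all G2/M UMIs and 23.04% of the G2/M-positive cells. It formed although the members and other known cell cycle genes had been left out of the variable genes used for clustering, and its leading genes by fold were Pclaf, Ube2c, Birc5 and Mki67. Its cells held a UMI of a Cd3 chain in 96.7%, of Cd4 in 50.1%, of a Cd8 chain in 29.1%, of Foxp3 in 5.68% and of Ncr1, a natural killer cell receptor, in 0.688%. After thinning 78.91% of its cells were G2/M-positive and 55.01% S-phase-positive. Its median depth was 14040 UMIs, against 5070 in the remaining T-like cells, of which 0.816% were G2/M-positive after thinning. The cluster made up 1.10%, 1.77% and 1.22% of kept cells in the controls and 1.15%, 1.84% and 1.19% in the knockouts, which overlap. Since members lead the cluster, its contrast with other cells is a description and was not tested.

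In cluster 21 the members differed widely in how many cells held them at equal depth. Stmn1 was found in 76.7% of thinned cells, Mki67, which coats mitotic chromosomes, in 62.3%, Pcna in 55.5%, Top2a, the topoisomerase that untangles replicated DNA, in 53.1%, Birc5 (survivin, of the chromosomal passenger complex) in 51.5%, Ube2c in 46.8% and the spindle motor Kif11 in 41%. At the other end were Ccne2 in 4.76%, Ccne1 in 6.65% and Ccnb1, the B-type cyclin of mitotic entry, in 7.96%. Per mouse, Mki67 was in 51.2%, 59.1% and 70.2% of control and 66.7%, 62.1% and 64.6% of knockout cells of the cluster, and the groups overlap. Such shares depend on how much of each transcript 3′ tags capture, so they rank detection and not expression between genes.

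Outside cluster 21 the balance between the members differed from class to class. Plasma-like cells held Mki67 in 24.4%, Top2a in 13.7%, Ube2c in 11.5% and Pcna in only 15.1% of thinned cells, so that Mki67 was detected more often than Pcna. In cDC1-like cells Mki67 was in 9.56% and Ube2c in 8.48%, and in neutrophil-like cells Mki67 was in 12.1%, with Pcna in 23.6% and 19.7%. Cluster 16, an unnamed cluster of 868 cells, was led by the granule genes Elane, Mpo, Prtn3 and Ctsg of immature granulocytes and monocytes. It held members of both sets, with Pcna in 30.7%, Mcm6 in 13.4%, Mcm3 in 11.6%, Top2a in 13.4% and Mki67 in 12.7% of thinned cells. Stmn1, of neither set, was in 33.6% of its thinned cells. Its thinned shares were 18.79% S-phase-positive and 17.6% G2/M-positive.

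Neutrophil-like cells were split by the same granule genes. Of 1061 cells, 905 held no UMI of Elane, Mpo, Prtn3 or Ctsg, and of these 5.236% were G2/M-positive after thinning, against 12.76% of the whole class. The class was also uneven between mice: its thinned share was 14.1%, 21.4% and 2.82% in the controls and 19.9%, 7.69% and 14.1% in the knockouts, from 74 to 358 cells. Control 3 was the lowest of all 6 mice.

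Some S-phase members were common in classes with almost no G2/M-positive cells. Pcna was in 24.4% of thinned B-like, 29.4% of T-like cells outside cluster 21 and 21.5% of endothelial-like cells, against 10.7% of hepatocyte-like cells. In endothelial-like cells Mcm4 was in 9.08% and Mcm3 in 7.83%, against 1.97% and 0.882% of hepatocyte-like cells, while Mki67 was in 1.1%. B-like cells held Top2a in 4.15% and Mki67 in 0.962%. In the heat map this shows as a Pcna row that is filled across every class, above G2/M rows that are filled at the right only.

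**Figure D3:**
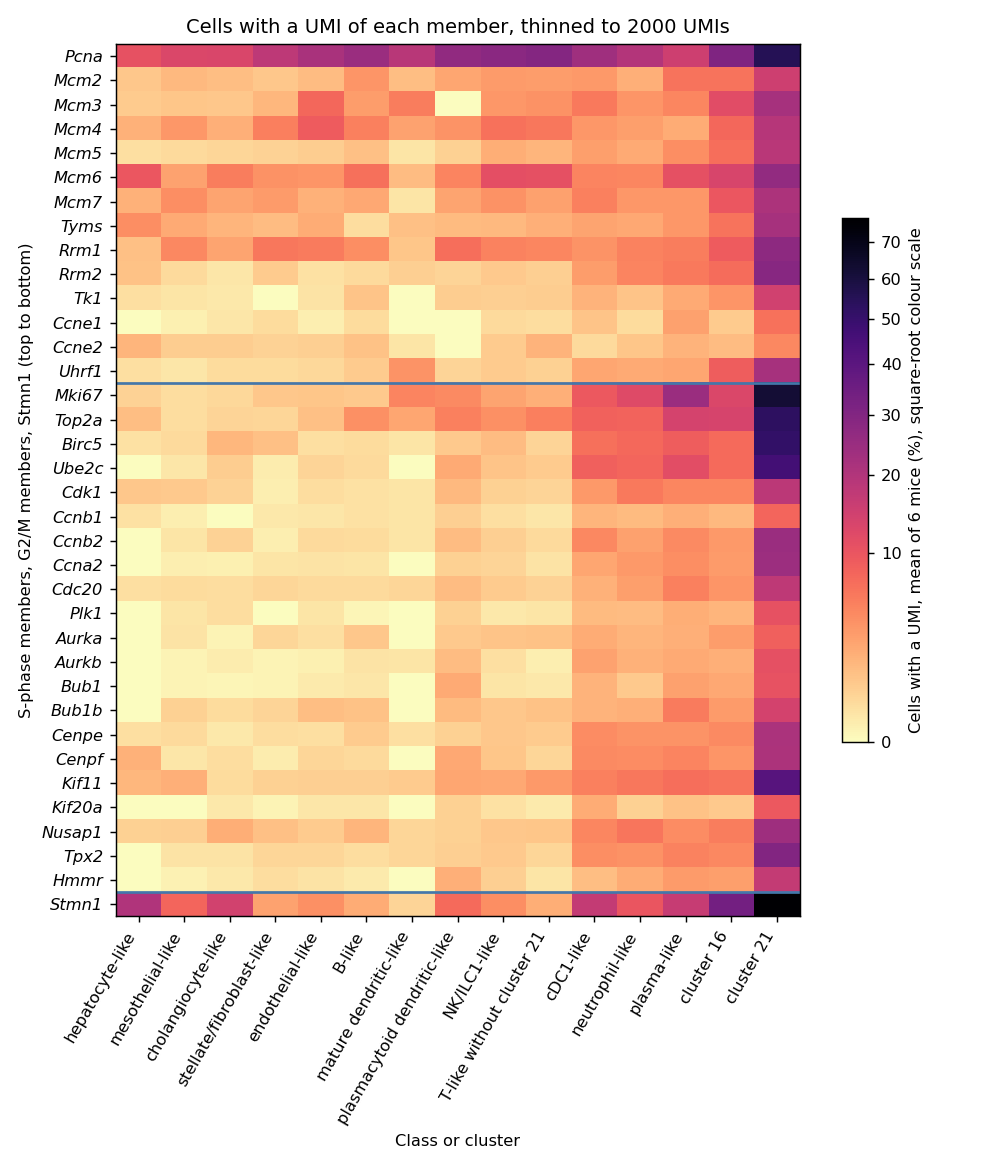
Percent of cells with a UMI of each member after thinning to 2000 UMIs, as the mean of 6 mice, on a square-root colour scale. The vertical axis lists S-phase members, G2/M members and Stmn1, separated by blue lines, and the horizontal axis lists classes and clusters; Pcna runs from 10.7% in hepatocyte-like cells to 55.5% in cluster 21, and Mki67 from 0.378% in mesothelial-like cells to 62.3%.

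How strictly a member was tied to cells with G2/M transcripts was measured by the percent of its UMIs in cells with at least 3 other G2/M members, which were 4.918% to 5.428% of all kept cells. The median over the 21 G2/M members was 89.49%, with a range of 55.86% to 97.5%. Ccna2, the cyclin of late S phase and mitotic entry, stood highest at 97.5%, followed by the spindle-binding Hmmr at 96.63%, Ube2c at 95.83% and the kinetochore protein Cenpf at 94.87%. The lowest were Bub1b at 55.86%, Aurka at 55.92%, Kif11 at 64.15%, Nusap1 at 69.39% and Top2a at 71.55%. The S-phase members ranged from Pcna at 23.68%, Mcm4 at 26.91% and Ccne2 at 28.1% to Tk1 at 72.41%, Uhrf1 at 78.49% and Rrm2, the regulated subunit of ribonucleotide reductase, at 87.96%. Its partner subunit Rrm1 was at 39.4%, and Stmn1 was at 70.03%.

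The ranges of the sets overlap, and 3 S-phase members (Rrm2, Uhrf1 and Tk1) lay above 5 G2/M members. Among cells without any other G2/M member, Pcna was found in 50.63%, Mcm6 in 18.28% and Top2a in 6.759%, but Ccna2 in 0.191% and Bub1 in 0.125%. After thinning these were 24.08%, 7.607%, 3.067%, 0.0382% and 0.0612%. The measure pools all 6 mice and was not tested.

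The genotypes were compared first over all kept cells of a mouse, to see whether the knockout genotype goes with a change in cell cycle transcripts in the liver as a whole. No member was called different between knockout and control. On UMIs summed per mouse, edgeR called 0 of 36 members at an adjusted p under 0.05 (percent called of all 18360 genes: 0). In edgeR 0 members had an unadjusted p under 0.05 (2.63% of all genes did, 1.14% higher and 1.49% lower). DESeq2 called 0 of 36 (0.109% of genes) with 0 unadjusted, beside 309 of 18360 genes higher and 287 lower. The adjusted p of every member was 0.9999 in edgeR. No member had CPM values that separated the groups, against 4.41% of all genes with all knockouts higher and 2.88% with all knockouts lower.

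Of the S-phase members, Pcna reached 169, 151 and 122 CPM in controls 1 to 3 and 135, 159 and 120 CPM in knockouts 1 to 3, a difference of -0.12 on the log2 scale (SE 0.18). Mcm6 reached 50.1, 54.2 and 38.3 CPM against 48.0, 46.8 and 36.7 CPM (-0.13, SE 0.18). Both overlapped between the groups, and control 3 and knockout 3 were the lowest of their groups for each. Rrm1, the large ribonucleotide reductase subunit, reached 33.3, 35.8 and 25.8 CPM against 36.9, 37.4 and 26.5 CPM (0.07, SE 0.20), and Mcm4 reached 33.1, 30.8 and 27.3 CPM against 32.0, 33.1 and 26.4 CPM (-0.02, SE 0.16). These again overlapped, and control 3 and knockout 3 were again the lowest of their groups.

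Of the G2/M members, Mki67 reached 42.7, 41.7 and 44.2 CPM in the controls and 82.9, 49.2 and 39.9 CPM in the knockouts (0.41, SE 0.29). Top2a reached 48.0, 38.6 and 36.0 CPM against 60.2, 47.3 and 31.2 CPM (0.16, SE 0.28). Knockout 1 was the highest mouse for both and knockout 3 the lowest. Ube2c reached 28.8, 28.9 and 30.7 CPM against 59.9, 30.3 and 25.7 CPM (0.39, SE 0.34), Birc5 23.7, 21.5 and 25.5 against 50.4, 22.6 and 19.6 CPM (0.39, SE 0.39), and Stmn1 76.0, 80.0 and 95.5 against 154.9, 82.8 and 93.8 CPM (0.39, SE 0.28). In each of these the value of knockout 1 stood far above the other 5 mice and knockouts 2 and 3 lay in or near the control range. The 3 members with the smallest unadjusted p were Plk1 (0.63, SE 0.32), Cenpf (0.48, SE 0.27) and the anaphase activator Cdc20 (0.55, SE 0.31).

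Over the members, 21 of 21 G2/M and 10 of 14 S-phase differences were positive, with medians of 0.39 and 0.16, against 47.22% of all genes positive and a median of -0.01. Without knockout 1 only 14 of 36 members were positive and the median of all 36 was -0.05, against 0.29 with all mice. Cluster 16 and neutrophil-like cells, described above, held 22.9% and 17.5% of the G2/M-positive cells of knockout 1, against 5.17% to 11% and 2.69% to 4.31% in the other 5 mice. The part of these cells in the result was not tested. In summed RNA, a change in the number of cells with these transcripts and a change in the RNA of each such cell cannot be told apart. The G2/M-positive share of all kept cells was 4.29%, 5.47% and 5.68% in the controls and 7.45%, 5.11% and 4.72% in the knockouts. After thinning it was 2.13%, 3.66% and 2.98% against 4.50%, 2.92% and 2.39%, and the groups overlap on both scales.

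The percent of kept cells with a UMI was compared for each member by a two-sided exact permutation test over mice, whose smallest possible p with 3 against 3 is 0.1. Mcm2 was in 11.46% ± 0.209 of knockout and 9.82% ± 0.597 of control cells (SD, n = 3 each), and Aurka, the centrosomal mitotic kinase, in 4.33% ± 0.599 and 3.467% ± 0.364. These were 2 of 36 members whose mice did not overlap, each with an exact p of 0.1, against 2.82% of 14116 genes with all knockouts higher and 0.248% with all knockouts lower. Without control 3, the mouse with the deepest cells, 21 members did not overlap, all higher, against 45% of genes. Without knockout 3 it was 6, all higher, against 4.99%. After thinning neither did: Mcm2 was in 3.269% ± 0.394 against 3.066% ± 0.496 and Aurka in 1.216% ± 0.176 against 1.089% ± 0.181 of cells. Ccne2 was then the only member without overlap, at 1.146% ± 0.0485 of knockout and 1.529% ± 0.132 of control cells. The share of all genes without overlap was not computed at that depth, so this count has no background.

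For the 10 classes in which each of the 6 mice had 20 cells or more, edgeR called 0 members in any class, against 3 of 108831 gene tests in those classes (0.00276%), and DESeq2 called 0 members, against 0% of genes in stellate/fibroblast-like to 2.23% in mesothelial-like cells. At an unadjusted p under 0.05 edgeR had 8 members in B-like, 8 in NK/ILC1-like, 4 in cholangiocyte-like and 2 in neutrophil-like cells, the last both higher (2.15% of genes were higher at that level). There was 1 each in T-like, cDC1-like and mesothelial-like cells, all lower, where 3.06%, 4.23% and 7.9% of genes were lower at that level, and 0 in endothelial-like, plasma-like and stellate/fibroblast-like cells, where 6.7%, 5.17% and 1.89% of all genes were at that level. The classes differed in how many members leaned which way, as the plot of member differences by class shows. Among the classes fitted, those named B-like and NK/ILC1-like had more than 4 members at an unadjusted p under 0.05.

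**Figure D4:**
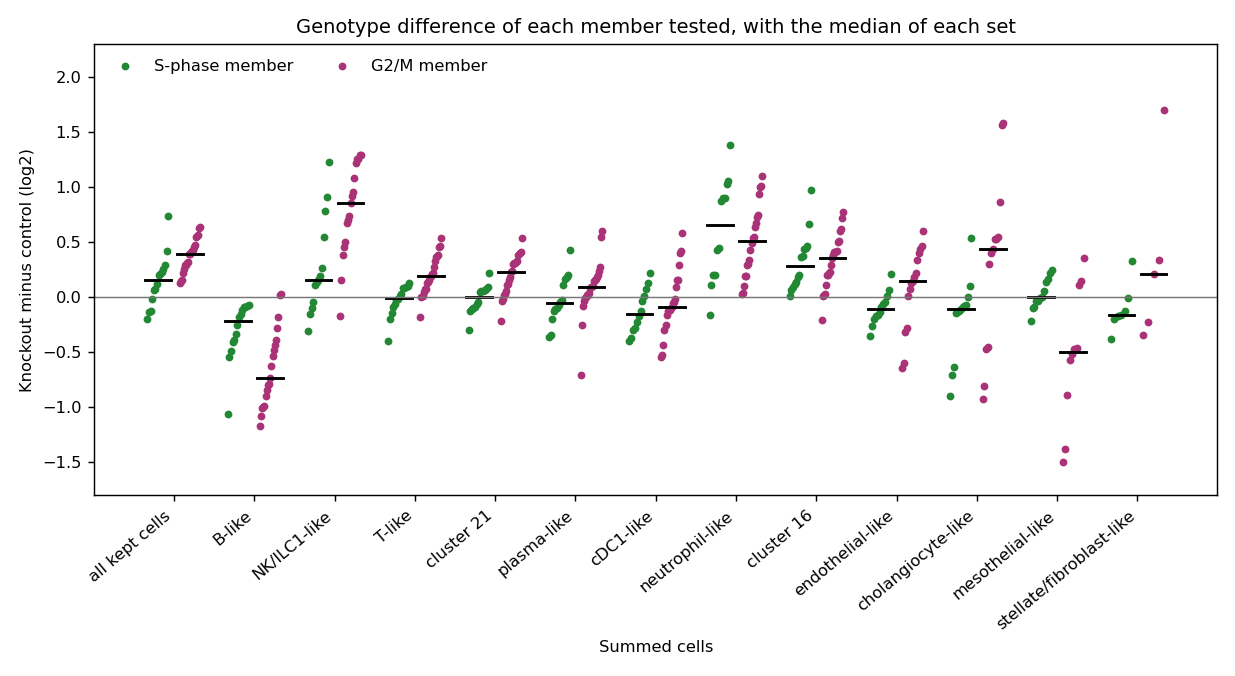
Log2 difference of knockout minus control (vertical axis) for each member tested in the summed cells named on the horizontal axis, with S-phase members in green and G2/M members in purple. Black bars are the median of each set; the G2/M medians are -0.74 for the B-like and 0.86 for the NK/ILC1-like class, and no member passed an adjusted p of 0.05 in any column.

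In B-like cells (8350 cells), 32 of 34 members tested were lower in the knockouts, with a median of -0.44 on the log2 scale against -0.01 over all 11353 genes. The sets leaned the same way, with 14 of 14 S-phase members (median -0.22) and 17 of 19 G2/M members (median -0.74). Uhrf1 reached 7.46, 13.6 and 9.16 CPM in the controls and 4.9, 4.51 and 4.82 CPM in the knockouts (-1.06, SE 0.24, edgeR adjusted p = 0.387). Top2a reached 33.1, 43.9 and 41.4 CPM against 23.9, 21.4 and 31.8 CPM (-0.63, SE 0.16, edgeR adjusted p = 0.428), and Mcm6 37.4, 58.8 and 45.2 CPM against 36.7, 32.0 and 31.0 CPM (-0.49, SE 0.15, edgeR adjusted p = 0.545). In all of these every knockout lay below every control, and control 2 was the highest mouse. In all, 6 members did not overlap, all lower (Ccnb1, Kif11, Mcm3, Mcm6, Top2a and Uhrf1), against 5.25% of genes. At an unadjusted p under 0.05 there were 8, all lower, against 4.62% of genes lower at that level. By DESeq2 there were 7, all lower, beside 345 of 11353 genes lower. Adjusted calls were made for 0.00881% of genes (0.106% by DESeq2) and for no member. Without a filter on low counts Top2a and Uhrf1 were called lower, with 0.502% of genes called.

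The B-like G2/M-positive cells were few, with 9 to 19 per mouse before thinning and fewer after it. Their share was 1.15%, 0.947% and 1.65% in the controls and 1.07%, 0.512% and 0.992% in the knockouts, which overlap, and after thinning 0.531%, 0.862% and 0.534% against 0.352%, 0.117% and 0.315%, which do not. In B cells taken by transcripts alone, defined with the test of the difference below, the thinned shares were 0.467%, 0.886% and 0.275% against 0.806%, 0.409% and 0.421%, which overlap. Control 2, the highest mouse for the members above, had the lowest median depth, 3236 UMIs, against 4722 to 5546 in the other mice. Thinning kept 812 of its 1161 B-like cells. Without control 2 the median over the members was -0.25. Without knockout 2 it was -0.26, and with the cell cycle genes kept in the clustering it was 0.02 over 30 members.

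In NK/ILC1-like cells (2684 cells), 26 of 31 members tested were higher in the knockouts, with a median of 0.68 against 0.000792 over all genes, and 16 of 17 G2/M members were so (median 0.86). The 13 S-phase members were less one-sided, with 9 higher and a median of 0.16. Kif11 reached 14.5, 22.1 and 19.4 CPM in the controls and 35.7, 32.3 and 42.6 CPM in the knockouts (0.96, SE 0.20, edgeR adjusted p = 0.204). Ccnb2, a B-type cyclin, reached 3.35, 6.77 and 8.60 CPM against 19.0, 11.2 and 13.1 CPM (1.29, SE 0.34, edgeR adjusted p = 0.537), and Cenpf 4.69, 9.12 and 11.3 CPM against 26.4, 13.5 and 16.8 CPM (1.25, SE 0.35, edgeR adjusted p = 0.568). In each of them every knockout lay above every control and knockout 1 or knockout 3 was the highest. These were the 3 members without overlap, against 7.44% of genes higher. At an unadjusted p under 0.05 there were 8 members, all higher, against 2.74% of genes. By DESeq2 there were 9, all higher, beside 140 of 9942 genes higher. Without a filter on low counts Ccnb2, Cdk1, Cenpf and Kif11 were called higher, with 0.475% of genes called. Without control 1 the median was 0.33, and without knockout 1 it was 0.36. With the cell cycle genes kept in the clustering it was -0.10 over 16 members.

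The G2/M-positive share of NK/ILC1-like cells was 1.37%, 2.98% and 2.85% in the controls and 4.82%, 3.81% and 4.21% in the knockouts, from 7 to 21 positive cells per mouse. At equal depth it was 0.464%, 2.64% and 2.04% against 3.77%, 1.95% and 2.62%, and the separation was gone.

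Because the members leaned in opposite directions in these classes, the difference between the genotype effects was tested itself, with the mouse as a term, for all 45 pairs of the 10 classes. The pair was singled out after the values of each class were seen. Members were called only for NK/ILC1-like against B-like cells, where 21 of 11461 genes were called (0.183%), and 87 of 570265 tests were called over all pairs (0.0153%). The 4 members called had a higher effect in NK/ILC1-like cells, by 1.75 for Kif11 (SE 0.23, edgeR adjusted p = 0.00158), 1.97 for Mki67 (SE 0.25, edgeR adjusted p = 0.00158), 2.42 for Cdk1 (SE 0.40, edgeR adjusted p = 0.0138) and 1.81 for Uhrf1 (SE 0.33, edgeR adjusted p = 0.034). With adjustment over all pairs jointly, edgeR's adjusted p was 0.0166 for Kif11 and 0.0185 for Mki67, and Cdk1 and Uhrf1 were not called. In all, 32 of 34 members were positive.

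For these members the mice spread widely within each class. Mki67 reached 13.8, 33.4 and 28.7 CPM in control and 14.5, 3.52 and 19.7 CPM in knockout B-like cells, and 19.4, 32.9 and 52.7 CPM in control and 78.8, 31.2 and 82.9 CPM in knockout NK/ILC1-like cells. Each class overlapped between groups for Mki67, and knockout 2 was the lowest knockout in both. Cdk1 reached 2.49, 9.17 and 4.58 against 3.38, 0.99 and 2.41 CPM in B-like cells, and 3.13, 6.47 and 3.76 against 16.4, 5 and 10.9 CPM in NK/ILC1-like cells, with knockout 2 again the lowest knockout.

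The calls changed with how cells were assigned to classes. At Leiden resolution 2 there were 5 members called, the same 4 and Stmn1, among 22 of 11437 genes called (0.192%). When the cell cycle genes were kept among the variable genes, 59 of the 84 G2/M-positive NK/ILC1-like cells (70.2%) fell into T-like clusters and 25 of the 83 B-like ones (30.1%) into plasma-like clusters. No member was then called for this pair, where 0.202% of genes were, and the difference was 0.24 for Kif11 and 0.01 for Mki67. When cells were instead taken by transcripts in any cluster, no member was called either (0% of genes). At an unadjusted p under 0.05 there were 5 of 33 members, beside 275 of all 12153 genes. Cells with Ncr1 and without Cd3 chains or B cell transcripts were set there against cells with at least 2 of Cd79a, Cd79b and Ms4a1 and without Cd3 chains, Ncr1 or Jchain. The difference was then 1.54 for Kif11 (SE 0.54) and 0.70 for Mki67 (SE 0.80), both with an edgeR adjusted p of 1. These alternatives were chosen after the values were seen.

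In T-like cells 28 of 36 members were higher in the knockouts, with a median of 0.10, and without control 1 only 9 were higher, with a median of -0.11. None was called (0.00774% of genes, 0.193% by DESeq2), 1 was lower at an unadjusted p under 0.05 (3.06% of genes) and 0 did not overlap (6.71% of genes higher and 3.7% lower). Ccne2 reached 10.7, 15.6 and 12.8 CPM in the controls and 7.92, 11.1 and 10.9 CPM in the knockouts (-0.40, SE 0.17, edgeR adjusted p = 0.805), Cdc20 was at 0.54 (SE 0.32) and Mcm6 at -0.19 (SE 0.13). Ccne2 overlapped between the groups. The G2/M-positive share was 3.80%, 6.47% and 7.48% in the controls and 6.60%, 6.88% and 4.69% in the knockouts, with control 1 the lowest mouse.

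T-like cells without cluster 21 split by phase. There 17 of 21 G2/M members were higher in the knockouts (median 0.24) and 10 of 14 S-phase members lower (median -0.09). None was called by edgeR (0% of genes) or DESeq2 (0.213% of genes), and 3 were higher and 1 lower at an unadjusted p under 0.05 in edgeR (2.92% and 3.37% of genes). Ube2c reached 6.21, 8.17 and 7.01 CPM in the controls and 16.1, 9.7 and 14.1 CPM in the knockouts, so that every knockout lay above every control. Ccne2 reached 10.5, 13.1 and 11.3 CPM against 6.66, 8.99 and 9.75 CPM, with every knockout below every control. In all, Ccnb2, Cdc20, Kif20a and Ube2c were higher without overlap, against 7.18% of genes, and Ccne2 was lower without overlap, against 3.97%. Mki67 overlapped, at 13.3, 21.3 and 18.8 CPM against 32.3, 19.8 and 22.6 CPM.

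Cluster 21, fitted apart after the data were seen, had no member called either (0.0793% of genes were, 0.113% by DESeq2). At an unadjusted p under 0.05, 4 were higher (2.75% of genes). By DESeq2 3 were, beside 139 of 8829 genes higher. The level of Mki67 in its cells was 577, 529 and 641 CPM in the controls and 701, 667 and 830 CPM in the knockouts. Cdc20 reached 64.8, 84.1 and 107 CPM against 122, 130 and 124 CPM (0.54, SE 0.18, edgeR adjusted p = 0.666), and Kif11 242, 239 and 243 CPM against 267, 357 and 304 CPM. All 3 separated the groups. In all, 6 G2/M members were higher without overlap (Cdc20, Cdk1, Cenpf, Kif11, Mki67 and Top2a), against 6.4% of genes, and 1 S-phase member, Mcm4, was lower without overlap, against 3.55%. Mcm4 reached 133, 149 and 137 CPM in the controls and 119, 119 and 109 CPM in the knockouts.

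Endothelial-like cells, the class named by the endothelial promoter of the Cre, held few G2/M transcripts in either group. Of the 28 members tested, 15 were higher in the knockouts, with a median of 0.01. Single mice turned this: 22 of 32 were higher without knockout 2 (median 0.29) and 18 of 28 without control 3 (0.31), but 8 of 31 without control 2 (-0.11), 12 of 32 without control 1 (-0.10), 13 of 31 without knockout 1 (-0.09) and 10 of 30 without knockout 3 (-0.12). Kif11 reached 4.82, 3.48 and 6.05 CPM in the controls and 7.19, 8.33 and 7.51 CPM in the knockouts (0.60, SE 0.28, edgeR adjusted p = 0.739), and was 1 of 28 members without overlap, against 9.77% of genes higher. The sets leaned apart, with 11 of 15 G2/M members higher (median 0.15) and 9 of 12 S-phase members lower (median -0.11), among them Rrm1 at -0.26 (SE 0.14). Mki67 reached 9.23, 4.50 and 16.9 CPM against 17.2, 2.33 and 16 CPM, with knockout 2 the lowest and knockout 1 the highest mouse. The G2/M-positive share was 1.93%, 1.52% and 2.72% against 1.97%, 2.95% and 3.60%, from 4 to 19 cells per mouse. After thinning it was 0%, 0.352% and 1.33% against 0.952%, 0% and 0.769%, which overlaps.

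In the remaining classes no member passed the threshold. Plasma-like cells, the named class richest in G2/M-positive cells, had positive shares of 30.8%, 25.6% and 31.3% in the controls and 34.2%, 32.1% and 30.3% in the knockouts, which overlap. Mki67 reached 241, 223 and 260 CPM in their controls and 257, 277 and 241 CPM in their knockouts, again with overlap. Of the 36 members 21 were higher, with a median of 0.06. It was 30 without control 1 (median 0.20), 11 without control 2 (-0.07) and 15 without knockout 1 (-0.11). Plk1, a kinase of mitotic entry, was higher without overlap at 10.2, 8.49 and 7.77 CPM against 11.9, 13.6 and 11.2 CPM (2.38% of genes were higher without overlap). The motor Kif20a, which acts in cytokinesis, was lower without overlap at 11.3, 7.28 and 7.77 CPM against 5.09, 4.53 and 5.12 CPM (6.43% of genes), from 4 to 30 UMIs per mouse.

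The granulocyte-related cells varied most between mice. Neutrophil-like cells had 32 of 33 members higher with a median of 0.54, and 18 of 33 with a median of 0.06 without control 3. Without knockout 1 it was 19 of 31, with a median of 0.16. Mki67 reached 216, 246 and 58.2 CPM in the controls and 315, 160 and 266 CPM in the knockouts, so control 3 was the lowest and knockout 1 the highest mouse. No member was called (0.0159% of genes were) and none was without overlap (6.89% of genes were higher and 2.5% lower without overlap). Knockout 1 had a median of 9009 UMIs per neutrophil-like cell against 3103.5 to 4755.5 in the other mice, and the part of depth in the result was not tested. Cluster 16 had 35 of 36 members higher with a median of 0.34, and 11 of 36 with a median of -0.13 without knockout 1, in which 50.2% of its cells were G2/M-positive against 13% to 30.1% in the others. Stmn1 reached 552, 435 and 314 CPM in its controls and 644, 447 and 512 CPM in its knockouts, which overlap.

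In cDC1-like cells 11 of 34 members were higher in the knockouts, with a median of -0.10, and 19 of 34 without knockout 1, with a median of 0.02. Cdk1 reached 17.6, 31.5 and 23.2 CPM in the controls and 16.3, 21.9 and 13.6 CPM in the knockouts, which overlap (-0.54, SE 0.25, edgeR adjusted p = 0.729). The kinetochore motor Cenpe was higher without overlap, at 20.8, 28.6 and 31.8 CPM against 32.6, 43.9 and 38.2 CPM (7.65% of genes were). Mcm6 was lower without overlap, at 43.4, 45.5 and 40.1 CPM against 32.1, 39.6 and 31.4 CPM (4.39% of genes were).

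In cholangiocyte-like cells 3 of 27 members tested were higher without overlap (Cdk1, Ccnb2 and Mki67), beside 6.52% of genes. Another 3 were lower without overlap (Ccne2, Mcm5 and Pcna), beside 9.07% of genes. Whether these counts exceed those shares was not tested. Cdk1 reached 0.429, 0.912 and 1.41 CPM in the controls and 2.54, 2.03 and 4.22 CPM in the knockouts (1.56, SE 0.45, edgeR adjusted p = 0.468), which rests on 1 to 63 UMIs per mouse. Mcm5 reached 3.86, 3.30 and 3.30 CPM against 1.63, 1.52 and 2.08 CPM (-0.90, SE 0.32), with every knockout below every control. Pcna reached 78.0, 87.8 and 74.9 CPM against 72.6, 73.7 and 69.4 CPM. The unthinned S-phase share of this class was 37.1%, 31.1% and 40.4% against 42.6%, 52.2% and 50.4%, opposite in direction to the CPM of Pcna, and no order was read from it. Median depth was 15499, 10573 and 16572 UMIs in the controls and 15349, 22510 and 22365 UMIs in the knockouts. After thinning the share was 0%, 0.863% and 0.434% against 0%, 0% and 0.749%, which overlap. At an unadjusted p under 0.05, 2 members of the class were higher and 2 lower (4.94% and 3.72% of genes). In mesothelial-like cells the mitotic spindle factor Tpx2 was lower without overlap (8.74% of genes were), at 2.97, 3.05 and 1.41 CPM against 0.692, 0.85 and 1.27 CPM (-1.38, SE 0.43, edgeR adjusted p = 0.175). Ccnb2 was also lower without overlap, at 1.62, 2.46 and 1.83 CPM against 1.04, 1.56 and 1.61 CPM. The helicase subunit Mcm7 was higher without overlap (13.8% of genes were), at 19.2, 17.6 and 19.0 CPM against 21.3, 25.5 and 20.9 CPM. Among stellate/fibroblast-like cells Top2a reached 0.532, 5.58 and 2.54 CPM against 29.5, 7.77 and 2.14 CPM, from 1 to 21 UMIs per mouse, with knockout 1 alone far above the rest.

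Other cell cycle genes, in lists written from textbook roles, gave no call in any class. In all kept cells 73 of 82 further G2/M genes and 32 of 40 further S-phase genes were higher in the knockouts, with 1 and 0 at an unadjusted p under 0.05. In B-like cells 58 of 70 further G2/M genes were lower (16 lower and 1 higher at an unadjusted p under 0.05, beside 4.62% of all genes lower). Among NK/ILC1-like cells 53 of 62 were higher (9 at that level, beside 2.74% of all genes higher). In cluster 21 they were higher for 71 of 82, with 10 higher and 2 lower at that level (2.75% and 2.89% of all genes), and 5 of 5 CDK inhibitors tested were higher there, with a median of 0.40. Of 18 genes of the E2F and RB families, 11 were higher in all kept cells, and of 11 replication-dependent histone genes 6 were.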

How the data were processed

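Single-cell 3′ libraries of 6 livers, 3 per genotype and labelled as biological replicates, were analysed from the raw UMI counts per gene and cell that the authors deposited. Per the submitters' processing notes the tools were Cell Ranger 7.1.0 and Seurat 4.1.1 with the mm10 build, and the annotation release is not given in the sources used here. Barcodes (44656 in all) were dropped below 300 detected genes or above 20% mitochondrial UMIs, and Scrublet (expected rate 0.06) removed 938 doublets. Its automatic threshold called 0 and 1 cells in controls 2 and 3, so the median of the other 4 (0.2667) was used for every library, which was decided after the scores were seen.

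Clusters (scanpy 1.11.5, 3000 variable genes without 41 cell cycle genes, 40 components, 20 neighbours, Leiden resolution 1) were named from marker lists, with a score of at least 0.5, a margin of 0.3 and at least 3 detected markers. UMIs summed per mouse were tested with edgeR 4.0.16 (quasi-likelihood, TMM, filterByExpr, Benjamini-Hochberg over all genes, threshold 0.05), with DESeq2 1.42.0 as an alternative. Percent positive was tested by an exact permutation test (scipy 1.17.1). On simulated data, edgeR recovered 22.22% of genes changed by 1 log2 unit and 79% of those changed by 2 in all kept cells (18141 genes). These were 73% and 97.98% in T-like cells (12739 genes) and 45.45% and 94.95% in plasma-like cells (8542 genes). False calls numbered 7, 12 and 11. No such values were obtained for the other classes, B-like and NK/ILC1-like among them.

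The members, lists and classes were chosen with earlier results of these data known. Members named are the 4 S-phase and 4 G2/M members of highest mean CPM and Stmn1, any past the threshold, up to 3 of smallest unadjusted p per class, and up to 2 of highest and lowest percent positive per class. Other members were chosen after their values were seen. Every deposited column was used. Alternatives covered scaling, filters, doublets, clustering, thinning, the replicate block and each mouse left out. A further alternative for the difference between classes is not reported here.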

Additional observations from a re-analysis of the deposited data

Results flagged for a closer look

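In 4 members the genotype effect differed between NK/ILC1-like and B-like cells by the test of the difference itself, over 3 mice per group. The NK/ILC1-like effect minus the B-like effect was 2.42 on the log2 scale for Cdk1, 1.75 for Kif11, 1.97 for Mki67 and 1.81 for Uhrf1. The pair was singled out after its values were seen, and none of the 4 was called when cells were clustered with the cell cycle genes or taken by Ncr1 and B cell transcripts in any cluster. With adjustment over all 45 pairs of classes Cdk1 and Uhrf1 were not called.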

How the results depend on the processing

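In all kept cells 0 members were called under every alternative run. By class, testing without a filter on low counts called 6 members (Top2a and Uhrf1 lower in B-like, and Ccnb2, Cdk1, Cenpf and Kif11 higher in NK/ILC1-like cells, against 0.502% and 0.475% of genes), and every other alternative called 0. Members whose percent positive did not overlap, 2 as reported, numbered 1 after thinning and 2 to 21 with 1 mouse left out. Class shares whose mice did not overlap, 2 as reported, numbered 0 with at least 2 members, 1 after thinning, 1 with clusters made with the cell cycle genes and 2 to 5 with 1 mouse left out. The 4 members called for NK/ILC1-like against B-like cells became 12 without the filter (0.577% of genes) and 5 at resolution 2 (0.192%). They became 0 with clusters made with the cell cycle genes (0.202% of genes) and 0 with cells taken by Ncr1 and B cell transcripts (0%). With 1 mouse left out they numbered 2 to 6, against 0.0254% to 0.234% of genes, and were 2 without control 2 and without knockout 1. Kif11 and Mki67 were called in all 6 of these fits with 1 mouse left out. The 33 results on the members of smallest unadjusted p kept their direction in 412 of 412 alternatives in which the member was fitted. Picking members by p in these same data favours a stable direction, so this does not test them. With the cell cycle genes kept in the clustering, 16 members were tested in NK/ILC1-like and 1 in neutrophil-like cells, against 31 and 33 as reported. The G2/M-positive share of all kept cells differed by 0.614 percentage points, and by -0.232 without knockout 1.

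With the replicate block, 0 members were called in all kept cells and 0 by class. Same-numbered mice correlated at 0.193, 0.011 and 0.318 over 15308 genes, so the numbers were not taken as pairs, and 1 of 3 controls correlated best with its own number. Depth limits the rarer members: B-like and NK/ILC1-like cells held 7 to 21 G2/M-positive cells per mouse before thinning.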

Other observations

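Plasmacytoid dendritic-like cells, with 18 to 75 cells per mouse, were too few for a test. Their summed G2/M members reached 992, 396 and 611 CPM in the controls and 162, 30.4 and 173 CPM in the knockouts, which do not overlap, and these rest on 3, 1 and 2 G2/M-positive cells against 4, 0 and 1.

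Cluster 30, an unnamed cluster of 277 cells led by Dach2, Slc7a8 and Il1rl1, with Stab2, Arg1, Il17rb and Gata3 also among its leading 10 genes and 28 to 81 cells per mouse, had the opposite order. Its G2/M members reached 350, 242 and 571 CPM in the controls and 847, 765 and 701 CPM in the knockouts, with 1 or 2 G2/M-positive cells in each mouse. No member was called there, and without a filter on low counts Ccnb2, Cenpf and Ube2c were called (0.134% of genes). Without knockout 3 Cenpf was called, as 1 of 2 genes.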
